A study of Mus musculus with 21 samples.

Results

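The genes described here supply cysteine to the cell, build glutathione from it, break glutathione down, or oxidise cysteine towards taurine. They are 10 genes named as a set and matched by their exact symbol, of 35550 gene symbols listed for RAW264.7 cells. All 10 were listed for the cells and 8 of them among the 5298 genes listed for liver, where Cbs and Cdo1 have no row. The set was named with earlier results of these data in view. Cystine enters cells through the transporter encoded by Slc7a11 and is reduced to cysteine. Cysteine is also made from homocysteine by the transsulfuration enzymes Cbs and Cth. Glutamate-cysteine ligase, made of the catalytic subunit Gclc and the modifier subunit Gclm, joins cysteine to glutamate in the step that limits glutathione synthesis, and Gss adds glycine. Chac1 cleaves glutathione inside the cell. Cdo1 oxidises free cysteine and Ado oxidises cysteamine, while Csad decarboxylates cysteine sulfinate on the way to hypotaurine and taurine. In macrophages the cystine transporter is known as an LPS-inducible gene, and in liver the hepatocyte is known as the main maker of glutathione.

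Expression was measured by RNA sequencing in 21 mouse libraries and given as TPM, a level in transcripts scaled for transcript length and library. RAW264.7 is an established mouse macrophage-like cell line. Its cells were WT and received PBS, LPS at 1 µg/mL, or LPS at 1 µg/mL with CTM at 0.5 mM, for 24 h, or they were WT or Vim-KO (vimentin knockout) and received PBS or LPS at 1 µg/mL for 12 h. Each of these 7 groups has 2 libraries. LPS is a cell wall component of Gram-negative bacteria, and CTM is written as in the labels, which do not spell it out. No group received CTM alone. Livers of C57BL/6J mice gave 1 library for each of 7 groups, injected intraperitoneally. WT livers had PBS, LPS at 30 mg/kg, or LPS at 30 mg/kg with CTM at 100 mg/kg. A further pair of WT livers had LPS at a dose the labels leave out, without or with depletion of liver macrophages, and TG2-KO livers (transglutaminase 2 knockout) had PBS or LPS at 30 mg/kg. The labels give no age of the mice and no time after injection. They also do not say how the Vim-KO line was made, whether it is 1 clone, how macrophages were depleted, or whether a liver library pools animals.

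The libraries matched their labels at the targeted genes. Vim stood between 1375 and 1930.1 TPM in 4 WT libraries at 12 h, whereas the 4 Vim-KO libraries held 17.0 to 33.0 TPM. Liver Tgm2, which encodes transglutaminase 2, stood at 0.74 and 15.5 TPM in the TG2-KO libraries and between 35.7 and 429 TPM in the 5 WT libraries. Of 10 macrophage markers, 9 reached 1 TPM in every RAW264.7 library, and Mrc1 did not. TPM hold no read counts, so depth is unknown and no counting interval can be given. Nothing in the labels says that paired libraries of a group are separate cultures, so the p-values measure the spread between these libraries only, which may be technical. RNA of the 24 h cells, of the 12 h cells and of livers was extracted on separate dates, so levels were compared only within an experiment. The liver RNA was itself extracted on 3 dates.

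Promoter sequence is shown for the 3 members whose LPS response differed between genotypes. Among the RefSeq start windows searched (GRCm38.p6), 8 belonged to 7 of the 10 members. Cth, Gclc and Cdo1 had no window among those searched. Each window printed is the 250 bases before the annotated transcript start, 5′ to 3′ on the gene's strand, and capitals mark the matches described next. Slc7a11 lies on the minus strand of chromosome 3, at chr3:50443614-50443863. Chac1 lies on the plus strand of chromosome 2, at chr2:119350992-119351241. Gclm lies on the plus strand of chromosome 3, at chr3:122245307-122245556.
Slc7a11: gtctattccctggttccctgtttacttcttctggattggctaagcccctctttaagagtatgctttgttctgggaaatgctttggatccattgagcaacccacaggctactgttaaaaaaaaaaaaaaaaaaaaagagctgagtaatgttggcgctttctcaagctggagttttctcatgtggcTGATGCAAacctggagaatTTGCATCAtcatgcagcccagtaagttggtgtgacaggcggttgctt
Chac1: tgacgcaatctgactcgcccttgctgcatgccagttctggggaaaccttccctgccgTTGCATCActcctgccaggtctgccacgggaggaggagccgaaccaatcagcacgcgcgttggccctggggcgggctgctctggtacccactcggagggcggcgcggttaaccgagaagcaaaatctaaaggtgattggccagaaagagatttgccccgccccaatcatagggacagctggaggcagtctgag
Gclm: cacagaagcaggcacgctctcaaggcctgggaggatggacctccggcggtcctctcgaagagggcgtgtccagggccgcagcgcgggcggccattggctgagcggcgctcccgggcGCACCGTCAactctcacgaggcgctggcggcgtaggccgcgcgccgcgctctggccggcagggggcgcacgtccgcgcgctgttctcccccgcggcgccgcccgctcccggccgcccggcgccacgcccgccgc

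In the Slc7a11 and Chac1 windows the capitals are matches to TGATGNAA on either strand, the core letters shared by elements that bind C/EBP and ATF family factors such as ATF4. Slc7a11 had 2 of them, TGATGCAA from -66 to -59 and TTGCATCA from -47 to -40 relative to the start, and Chac1 had 1, TTGCATCA from -193 to -186. Of 32851 windows of the same length 3.45% held at least 1 such match, and 0.0396% held at least 2. In the Gclm window the capitals are the match to TGACNNNGC on either strand, the core of the antioxidant response element, which lies from -134 to -126 as GCACCGTCA. That core was found in 10.2% of the windows searched. No match to one pattern overlapped a match to the other. The windows of the members Cbs, Gss, Csad and Ado held no match to either pattern, and Cth, Gclc and Cdo1 were not searched. A match is a description of letters and was not tested as a binding site here. Whether the matches bear on the genotype differences was not tested.

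LPS against PBS at 24 h asks what LPS does to these genes in WT macrophage-like cells. Slc7a11, which brings in cystine, Cth, which makes cysteine, and Chac1, which cleaves glutathione, rose many-fold, while Gclc, the catalytic subunit of glutathione synthesis, fell, as did Csad, Ado and Cbs. Of 9 members tested, 5 rose and 4 fell (limma on log2(TPM + 1), Benjamini-Hochberg adjusted over all genes at 0.05). In this comparison 66.0% of all 11030 genes tested passed, 20.9% higher and 45.1% lower, so the count of members past the threshold is not by itself particular to them. The median log2 change was 0.48 over the 9 members and -0.23 over all genes. All fold changes below are on the log2(TPM + 1) scale ± SE, which understates the change of genes near 1 TPM.

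Slc7a11, the transport subunit of the cystine-glutamate exchanger (GRCm38 chr3:49892526-50443614, minus strand), stood at 8.92 and 8.59 TPM under PBS and 204 and 188 TPM under LPS. It was thus 22.4-fold higher in the mean, and its log2 change of 4.33 ± 0.069 was the largest of the set (adjusted p = 2.42e-08). With LPS it had the highest level of the 10 genes in both libraries, above Gclm, whereas with PBS it ranked below Gclm, Gclc, Gss, Ado and Csad. Slc3a2, the heavy chain that carries the exchanger to the membrane, stood at 122 and 131 TPM under PBS and 566 and 595 TPM under LPS. Its change was smaller, at 2.19 ± 0.054, and the level of Slc7a11 relative to Slc3a2 within a library moved from 0.073 and 0.066 to 0.361 and 0.316.

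The transsulfuration enzymes parted. Cth, which releases cysteine from cystathionine (chr3:157894248-157925077, minus strand), was low with PBS at 1.07 and 1.95 TPM and stood at 22.8 and 20.5 TPM with LPS. It rose by 3.20 ± 0.18 (adjusted p = 7.39e-06). Cbs, which makes cystathionine from homocysteine (chr17:31608894-31637238, minus strand), stood at 1.72 and 3.81 TPM under PBS and 1.01 and 0.406 TPM under LPS. The groups did not overlap and Cbs fell by 1.10 on the log2 scale (SE 0.33, adjusted p = 0.0206), but all 4 values were low, and without the LPS library numbered 3 the call was lost (adjusted p = 0.111, range over 10 alternatives 0.00926 to 0.111).

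The enzymes of glutathione synthesis also moved in different directions. Gclc (chr9:77754535-77794485, plus strand) stood at 41.3 TPM in each PBS library and at 19.5 and 14.04 TPM after LPS, a change of -1.27 ± 0.14 (adjusted p = 0.000203). Gclm (chr3:122245557-122270732, plus strand) stood at 82.8 and 77.0 TPM under PBS and 145 and 154 TPM under LPS, a change of 0.89 ± 0.069 (adjusted p = 3.36e-05). Both LPS libraries were thus below both PBS libraries for the catalytic subunit and above both for the modifier subunit. Gss (chr2:155563181-155592810, minus strand) stood at 19.7 and 19.1 TPM under PBS and 25.3 and 29.9 TPM under LPS, the smallest change of the 9 at 0.48 ± 0.10 (adjusted p = 0.00488).

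Chac1, which cleaves glutathione inside the cell (chr2:119351229-119354381, plus strand), stood at 1.46 and 1.05 TPM under PBS and 21.8 and 16.8 TPM under LPS. It rose by 3.16 ± 0.16 (adjusted p = 4.41e-06), close to Cth in size. On the routes to taurine, Csad and Ado fell, and Cdo1 could not be tested. Csad (chr15:102176999-102204724, minus strand) stood at 14.3 and 14.2 TPM under PBS and 3.14 and 3.40 TPM under LPS, a change of -1.83 ± 0.21 (adjusted p = 0.000204) and the largest decrease of the set. Ado (chr10:67544511-67548955, minus strand) stood at 16.5 and 16.6 TPM under PBS and 7.42 and 7.76 TPM under LPS, a change of -1.03 ± 0.11 (adjusted p = 0.000144). Cdo1 had a mean under 1 TPM and was not tested, with 0.889 and 1.43 TPM under PBS and 0.715 and 0.303 TPM under LPS. With median-of-ratios scaling between libraries, which moved the median change of all genes from -0.23 to 0.0063 and the share of higher calls from 31.6% to 50.9%, the members again gave 5 higher and 4 lower.

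**Figure D1:**
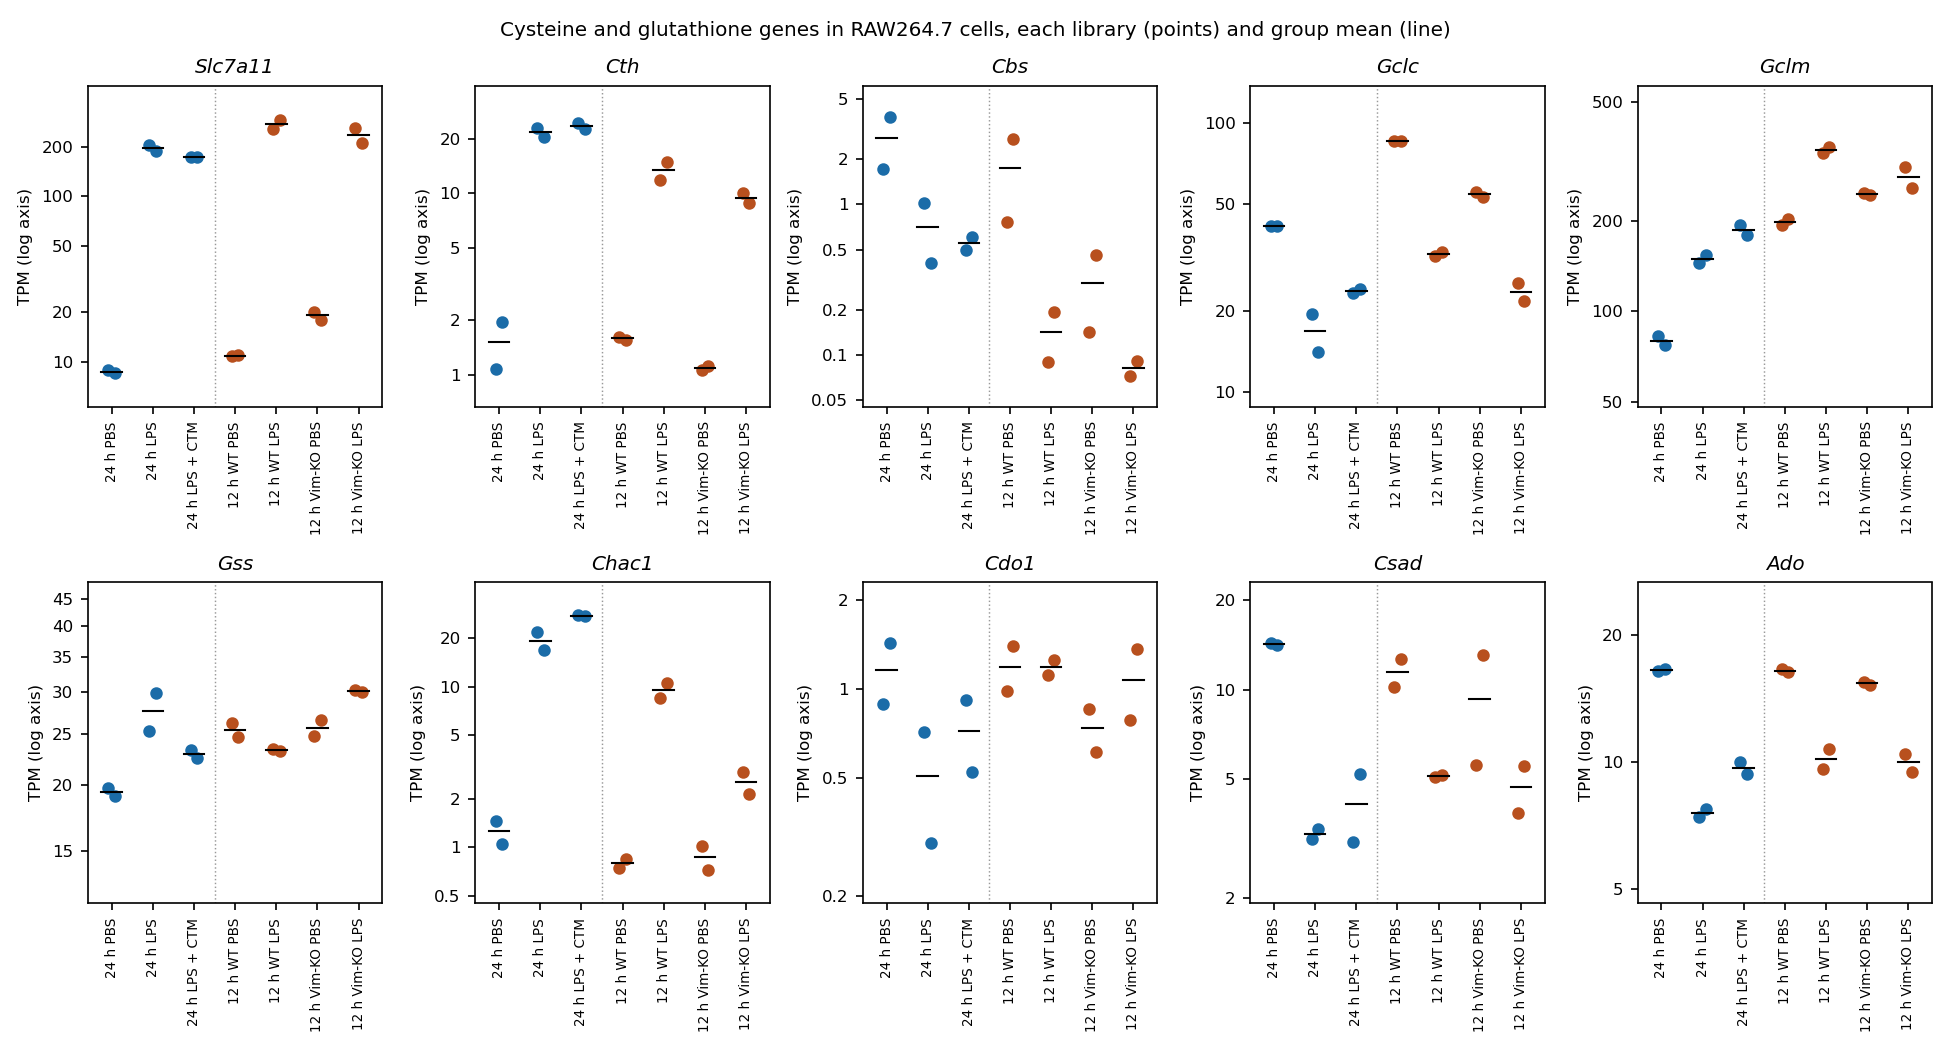
TPM of the 10 genes on log axes in the 14 RAW264.7 libraries (points, 2 per group) with group means (lines), 24 h experiment in blue and 12 h experiment in orange. Slc7a11, Cth and Chac1 sit higher in every LPS group than in the PBS group beside it, least so for Chac1 in Vim-KO cells, Gclc and Ado sit lower, and Cbs and Cdo1 stay under 4 TPM throughout.

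Adding CTM to LPS for 24 h shows how CTM alters these genes in activated cells. The changes were small beside those of LPS. Gclc and Gclm were higher with CTM and no member was lower, so 2 of 9 members passed where 25.6% of all genes did, 16.1% higher and 9.45% lower. Gclc stood at 19.5 and 14.04 TPM with LPS and at 23.4 and 24.2 TPM with CTM added (0.50 ± 0.14, adjusted p = 0.0410). Gclm stood at 145 and 154 TPM with LPS and at 194 and 180 TPM with CTM added (0.33 ± 0.069, adjusted p = 0.0147). Both CTM libraries were above both LPS libraries for each subunit.

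Chac1 read 27.8 and 27.4 TPM with CTM against 21.8 and 16.8 TPM with LPS alone, without overlap (0.50 ± 0.16, adjusted p = 0.0553). Ado read 10.03 and 9.39 TPM against 7.42 and 7.76 TPM (0.32 ± 0.11, adjusted p = 0.0701). Slc7a11 read 174 and 172 TPM against 204 and 188 TPM (-0.18 ± 0.069, adjusted p = 0.102), and Gss 23.3 and 22.5 TPM against 25.3 and 29.9 TPM (-0.25 ± 0.10, adjusted p = 0.115). For these 4 genes the groups did not overlap, yet none passed. Cth (24.4 and 22.7 TPM), Csad (3.07 and 5.20 TPM) and Cbs (0.499 and 0.608 TPM) overlapped their LPS values, and Cdo1, at 0.919 and 0.525 TPM, was under the filter.

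These calls were not stable. After scaling Gclc and Gclm both missed the threshold (adjusted p = 0.0531 and 0.0535) and Slc7a11 passed as lower (-0.26, adjusted p = 0.0205), while the share of higher calls over all genes went from 63.1% to 45.3%. Over 13 alternatives the Gclc call was kept in 3 (adjusted p from 0.00853 to 0.157) and the Gclm call in 9 (0.0114 to 0.0915). Chac1 passed in 4 of 13 (0.0315 to 0.218), and Slc7a11 in 1 (0.0205 to 0.305).

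LPS plus CTM against PBS at 24 h shares its libraries with both comparisons above, so it is given as values and not as a further line of support. Slc7a11 (4.16 ± 0.069), Chac1 (3.67 ± 0.16), Cth (3.31 ± 0.18) and Gclm (1.22 ± 0.069) were higher than with PBS. Csad (-1.60 ± 0.21), Cbs (-1.22 ± 0.33), Gclc (-0.77 ± 0.14) and Ado (-0.71 ± 0.11) were lower, and Gss did not pass (0.23 ± 0.10, adjusted p = 0.102). Scaling moved the median of all genes from -0.16 to 0.0051 and the share of higher calls from 32.9% to 53.3%, and Gss then passed (0.39, adjusted p = 0.0236; range over 12 alternatives 0.0236 to 0.286). Without scaling 8 of 9 members passed, 4 higher and 4 lower, against 52.9% of all genes, 17.4% higher and 35.5% lower. The Cbs call was lost without either CTM library (adjusted p = 0.0709 and 0.0542, range over 10 alternatives 0.0115 to 0.0709).

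LPS against PBS in WT cells at 12 h shows the earlier time in a separate experiment. Slc7a11, Chac1, Cth and Gclm rose and Gclc, Csad and Ado fell, so 7 of 9 members passed where 70.9% of all 11115 genes did, 17.8% higher and 53.1% lower. The median change was 0.0013 over the members and -0.35 over all genes. Slc7a11 stood at 10.8 and 10.99 TPM under PBS and 255 and 290.2 TPM under LPS (4.52 ± 0.11, adjusted p = 4.5e-08). Cth stood at 1.603 and 1.56 TPM and at 11.9 and 15.0 TPM (2.47 ± 0.14, adjusted p = 2.19e-06). Chac1 stood at 0.741 and 0.848 TPM and at 8.55 and 10.6 TPM (2.55 ± 0.18, adjusted p = 6.5e-06). In each of these 3 genes the lower LPS library was more than 7 times the higher PBS library.

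Gclm stood at 194 and 204 TPM under PBS and 338 and 352 TPM under LPS (0.79 ± 0.079, adjusted p = 4.91e-05). Gclc went from 86.2 and 86.0 TPM to 32.0 and 33.3 TPM (-1.37 ± 0.084, adjusted p = 3.11e-06). Again the modifier subunit was higher and the catalytic subunit lower in both LPS libraries. Ado went from 16.6 and 16.3 TPM to 9.65 and 10.7 TPM (-0.64 ± 0.095, adjusted p = 0.000447).

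Csad went from 10.2 and 12.7 TPM to 5.09 and 5.15 TPM in WT cells (-1.02 ± 0.32, adjusted p = 0.0211). The Csad call was kept in 10 of 15 alternatives (adjusted p from 0.000509 to 0.109) and was lost after scaling (-0.68, adjusted p = 0.109). Gss read 26.2 and 24.7 TPM under PBS and 23.4 and 23.1 TPM under LPS and did not pass (-0.12 ± 0.076, adjusted p = 0.177). Its direction depended on scaling, which moved the median change of all genes from -0.35 to 0.0064 and the share of higher calls from 25.2% to 51.3%: scaled, Gss was higher with LPS (0.25, adjusted p = 0.0202). Cdo1 read 0.988 and 1.40 TPM under PBS and 1.12 and 1.25 TPM under LPS. Cbs, under the filter at 12 h, was listed at 0.762 and 2.70 TPM under PBS and 0.090 and 0.193 TPM under LPS.

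LPS against PBS in Vim-KO cells at 12 h gave higher Slc7a11, Cth, Chac1 and Gss and lower Gclc and Ado, so 6 of 9 members passed against 66.4% of all genes, 20.5% higher and 45.8% lower. Slc7a11 stood at 20.1 and 18.05 TPM under PBS and 258 and 209 TPM under LPS (3.54 ± 0.11, adjusted p = 1.16e-07). Cth stood at 1.06 and 1.12 TPM and at 10.04 and 8.82 TPM (2.32 ± 0.14, adjusted p = 3.23e-06). Chac1 stood at 1.01 and 0.718 TPM and at 2.93 and 2.14 TPM (0.92 ± 0.18, adjusted p = 0.00218). All LPS libraries were above all PBS libraries in these 3 genes, although Chac1 stayed under 3 TPM.

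Gclm read 247 and 243 TPM under PBS and 302 and 258 TPM under LPS in Vim-KO cells, without overlap, and did not pass (0.19 ± 0.079, adjusted p = 0.0698). It passed after scaling (0.45, adjusted p = 0.00069; range over 15 alternatives 0.00069 to 0.346). Gss stood at 24.7 and 26.5 TPM under PBS and 30.2 and 30.0 TPM under LPS (0.23 ± 0.076, adjusted p = 0.0289), a call kept in 11 of 15 alternatives (0.000831 to 0.157). Gclc went from 55.4 and 53.3 TPM to 25.4 and 21.8 TPM (-1.17 ± 0.084, adjusted p = 7.61e-06) and Ado from 15.5 and 15.2 TPM to 10.5 and 9.48 TPM (-0.58 ± 0.095, adjusted p = 0.000918).

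Csad in the Vim-KO PBS libraries read 5.60 and 13.1 TPM, a wide spread, against 3.86 and 5.55 TPM with LPS, and did not pass (-0.77 ± 0.32, adjusted p = 0.0633). Without the first Vim-KO PBS library, the lower of the pair, it passed (-1.32, adjusted p = 0.00214; range over 15 alternatives 0.00214 to 0.402). Cdo1 read 0.861 and 0.616 TPM under PBS and 0.785 and 1.37 TPM under LPS, and Cbs 0.143 and 0.459 TPM under PBS and 0.073 and 0.091 TPM under LPS. In Vim-KO cells scaling moved the median change of all genes from -0.23 to 0.0054 and the share of higher calls from 31% to 50.4%.

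**Figure D2:**
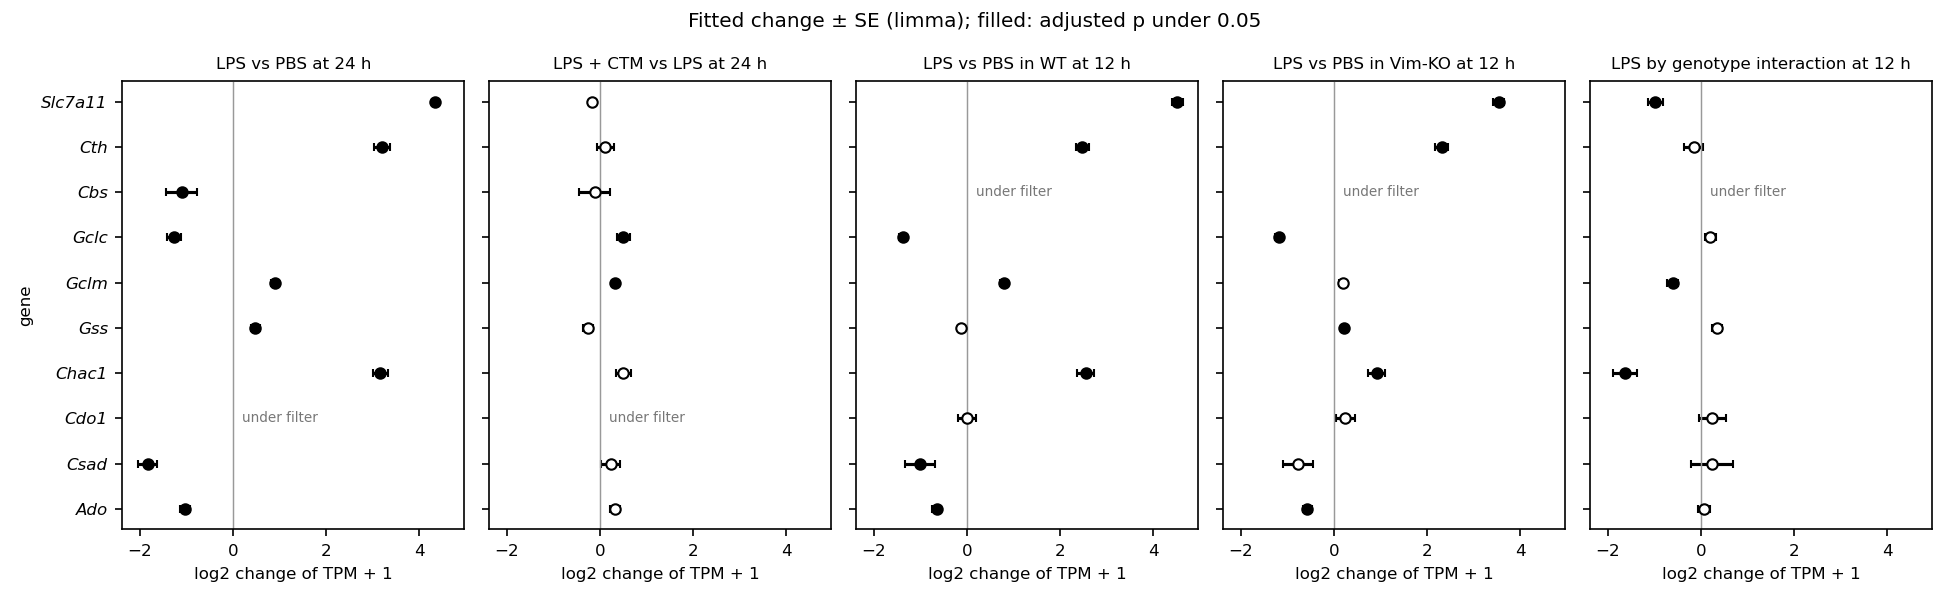
Fitted log2 change of TPM + 1 with its SE (limma) for each gene in 5 comparisons, filled where the adjusted p is under 0.05. LPS moved Slc7a11, Cth and Chac1 furthest up, the largest CTM changes were 0.50, and the genotype interaction lay below 0 and past the threshold for Slc7a11, Gclm and Chac1.

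The LPS by genotype interaction, the change with LPS in Vim-KO cells less the WT change, tests whether loss of vimentin goes with another response. The response of Slc7a11, Gclm and Chac1 was smaller in Vim-KO cells, and no member had a larger one past the threshold. These 3 of 9 members passed against 20.6% of all genes, 13.7% higher and 6.96% lower. Chac1 differed most (-1.63 ± 0.25, adjusted p = 0.00376), followed by Slc7a11 (-0.98 ± 0.16, adjusted p = 0.00494) and Gclm (-0.61 ± 0.11, adjusted p = 0.00857). The 3 calls were kept in every alternative run, 14 for Slc7a11 (adjusted p from 0.0015 to 0.0253) and Gclm (0.00158 to 0.0435) and 13 for Chac1 (0.00219 to 0.0195). Scaling moved the median of all genes from 0.086 to -0.030 and the share of higher calls from 66.2% to 46.2%, and gave 0 members higher and 3 lower. For Cth (-0.16 ± 0.20), Gclc (0.20 ± 0.12), Gss (0.35 ± 0.11, adjusted p = 0.0549), Ado (0.068 ± 0.13), Csad (0.24 ± 0.45) and Cdo1 (0.24 ± 0.29) no difference in response passed.

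The 3 genes reached a smaller response by different routes, as the levels of both genotypes show. With PBS, Slc7a11 was higher in Vim-KO cells, 20.1 and 18.05 TPM against 10.8 and 10.99 TPM (0.75 ± 0.11, adjusted p = 0.00124), and so was Gclm, 247 and 243 TPM against 194 and 204 TPM (0.30 ± 0.079, adjusted p = 0.0166). Gclc was lower, 55.4 and 53.3 TPM against 86.2 and 86.0 TPM (-0.65 ± 0.084, adjusted p = 0.000523). No other member passed with PBS, so 3 of 9 did against 43.0% of all genes, 17.7% higher and 25.4% lower. The Gclm call was lost when any 1 of the 4 PBS libraries was left out (adjusted p from 0.0523 to 0.102; range over 15 alternatives 0.00286 to 0.102).

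With LPS, Chac1 stood at 2.93 and 2.14 TPM in Vim-KO and at 8.55 and 10.6 TPM in WT cells, 3.77-fold lower in the mean (-1.58 ± 0.18, adjusted p = 0.000271). Gclm (302 and 258 against 338 and 352 TPM) was lower as well (-0.30 ± 0.079, adjusted p = 0.0159), and so was Gclc (25.4 and 21.8 against 32.0 and 33.3 TPM) at -0.46 ± 0.084 (adjusted p = 0.00324). Gss was the only member that was higher, 30.2 and 30.0 against 23.4 and 23.1 TPM (0.36 ± 0.076, adjusted p = 0.00624). Slc7a11 overlapped between the genotypes with LPS, 258 and 209 against 255 and 290.2 TPM (-0.23 ± 0.11, adjusted p = 0.143), and passed as lower in Vim-KO after scaling (-0.30, adjusted p = 0.0383; range over 15 alternatives 0.0265 to 0.590).

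Cth was lower in Vim-KO cells with LPS, 10.04 and 8.82 against 11.9 and 15.0 TPM (-0.46 ± 0.14, adjusted p = 0.0297). In all, 5 of 9 members passed with LPS, 1 higher and 4 lower, against 44.7% of all genes, 24.1% higher and 20.6% lower. Scaling moved the share of higher calls from 54% to 44.4% and the members to 1 higher and 5 lower. Leaving out the second WT LPS library lost the Cth (adjusted p = 0.189) and Gclm (adjusted p = 0.0822) calls and left 3 members past. The Cth range over 15 alternatives was 0.0125 to 0.189, and the Gclm range 0.00219 to 0.0822.

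Other genes separate the genotypes too, and their part in these results was not tested. The summed level of the 10 macrophage markers was 17998 and 17896 TPM in WT PBS libraries, 9234 and 9203 TPM in Vim-KO PBS libraries, 14178 and 15016 TPM in WT LPS libraries and 12347 and 11577 TPM in Vim-KO LPS libraries. Lyz2 made up most of the sum and of its PBS gap, with 13323 and 13402 TPM in WT and 5704 and 5485 TPM in Vim-KO PBS libraries, whereas Csf1r stood at 1407 and 1367 TPM and at 1187 and 1197 TPM. S100a8, from the neutrophil marker list, stood at 908 and 892 TPM in WT LPS libraries and at 13.1 and 12.9 TPM in Vim-KO LPS libraries, while the 10 T and B cell markers were near 0 throughout.

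**Figure D3:**
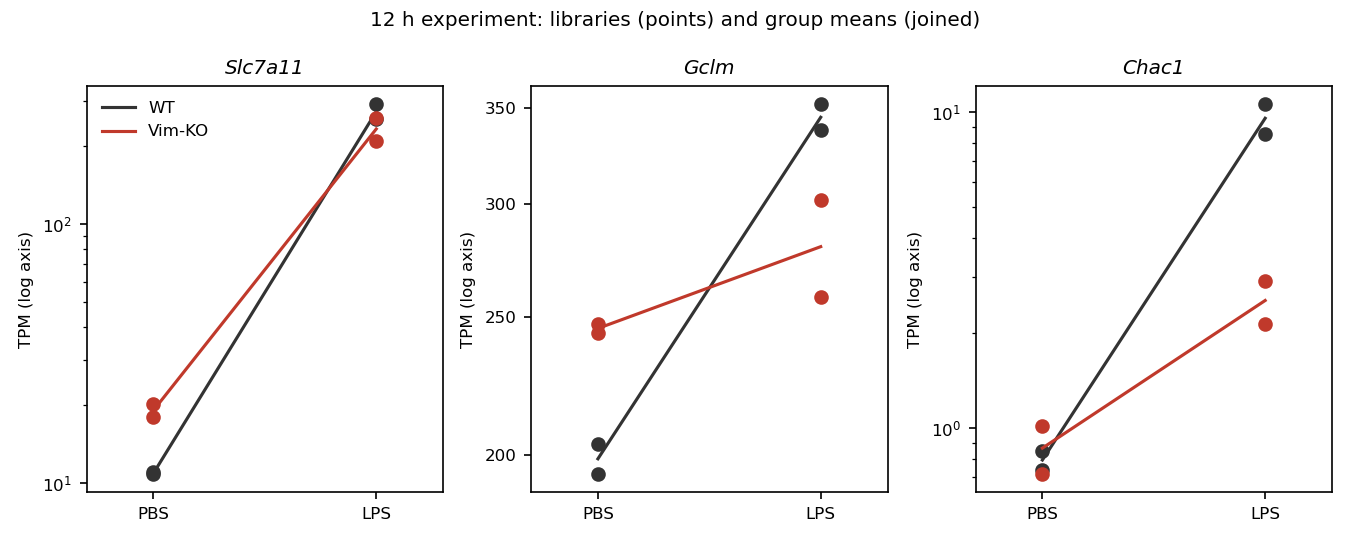
TPM of Slc7a11, Gclm and Chac1 at 12 h on log axes, WT in black and Vim-KO in red, with library values as points and group means joined. Slc7a11 and Gclm start higher in Vim-KO cells with PBS, and Chac1 starts together and ends at 2.14 to 2.93 TPM in Vim-KO against 8.55 to 10.6 TPM in WT cells.

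The balance of the ligase subunits can be read within each library, since TPM are per length. Gclm exceeded Gclc in every RAW264.7 library. The ratio of Gclm to Gclc was 2.01 and 1.86 with PBS at 24 h, 7.41 and 10.9 with LPS, and 8.30 and 7.44 with CTM added. At 12 h it was 2.25 and 2.37 in WT PBS libraries and 10.5 and 10.6 with LPS. Vim-KO cells stood higher with PBS, at 4.46 and 4.57, and at 11.9 and 11.8 with LPS. The LPS and PBS groups of each experiment did not overlap, and neither did WT and Vim-KO with PBS.

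**Figure D4:**
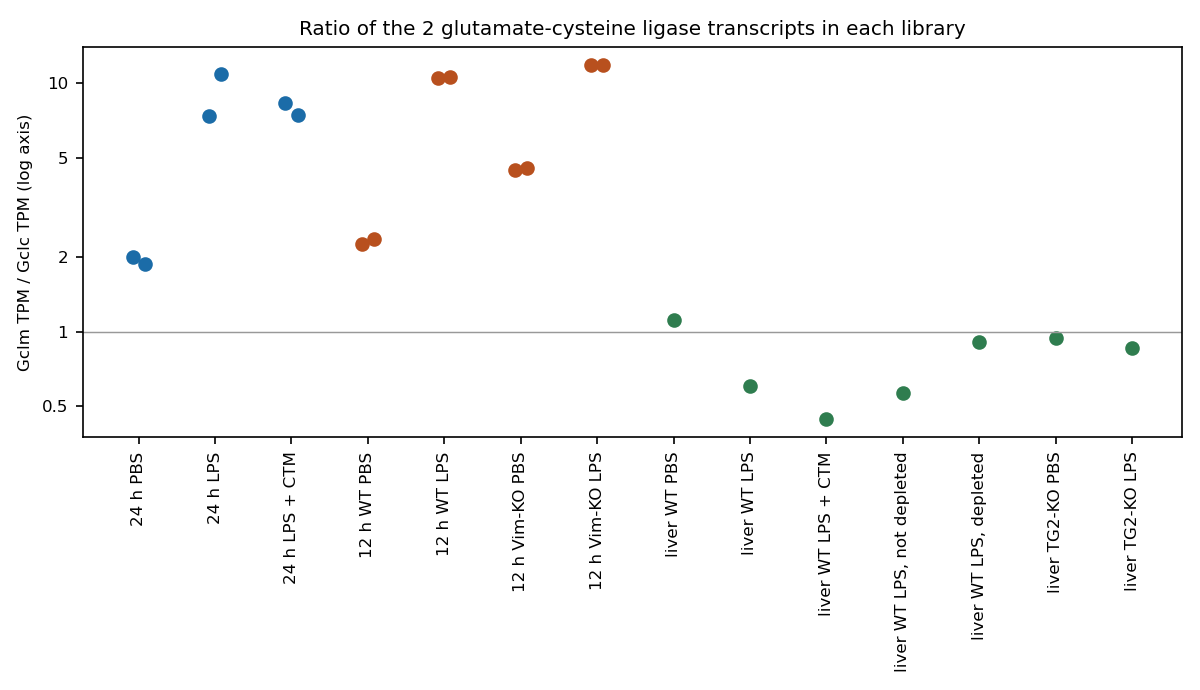
Ratio of Gclm TPM to Gclc TPM within each of the 21 libraries on a log axis, 24 h cells in blue, 12 h cells in orange and livers in green. All 14 cell line libraries lie above 1.8, LPS libraries above 7, and all livers between 0.444 and 1.11.

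Around these genes, 7 lists of neighbouring pathways were read at 24 h, chosen like the members with earlier results of these data known. Of all genes tested for LPS against PBS, 20.9% were higher and 45.1% lower. With LPS, the ATF4 axis, the factors and targets of the amino acid and stress response, had 13 of 19 tested genes higher, 4 lower and 2 not past (median 1.46 against -0.23 for all genes). The stress factor Atf3 stood at 547 ± 14.5 (SD, n = 2) against 12.7 ± 3.70 TPM with PBS (5.35 ± 0.19), and Trib3 at 31.4 ± 3.90 against 1.49 ± 1.10 TPM (3.77 ± 0.27). Of the NRF2 axis, the antioxidant response factors and targets, 10 of 21 were higher, 6 lower and 5 not past, and 13 and 2 after scaling. The haem oxygenase Hmox1 (774 ± 18.2 against 91.0 ± 4.52 TPM) rose by 3.08 ± 0.058.

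The counts of the other lists with LPS at 24 h also stand beside 20.9% of all genes higher and 45.1% lower. Genes that use, recycle or break down glutathione split, 8 of 18 higher and 7 lower, and 10 and 4 after scaling. Glutaredoxin Glrx, which reduces proteins bound to glutathione, rose most (572 ± 4.52 against 70.9 ± 0.456 TPM, 2.995 ± 0.047). Abcc1, which exports glutathione and its conjugates, stood at 103 ± 5.58 against 50.5 ± 1.96 TPM (1.01 ± 0.07). Of the glutathione transferases 4 of 13 were higher and 4 lower, and 4 and 3 after scaling. Of the methionine cycle 2 of 14 were higher and 7 lower, and 4 and 7 after scaling. Mat2a, which makes S-adenosylmethionine, fell (22.0 ± 6.71 against 178 ± 17.8 TPM, -2.99 ± 0.18). Of the genes of cysteine breakdown, sulfide and taurine 2 of 13 were higher and 7 lower, and 4 and 6 after scaling, and the sulfide oxidase Sqor was among the higher (83.6 ± 6.05 against 22.1 ± 1.72 TPM, 1.87 ± 0.09). Of the transporters of cystine, cysteine and glutamate 4 of 12 were higher and 5 lower, and 6 and 5 after scaling.

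With CTM added to LPS at 24 h, the methionine cycle had 7 of 14 genes higher, 0 lower and 7 not past, a count that scaling left at 7 and 0, where 16.1% of all genes were higher and 9.45% lower. Mat2a stood at 54.8 ± 0.354 against 22.0 ± 6.71 TPM with LPS (1.31 ± 0.18, adjusted p = 0.00309), and Amd1, of polyamine synthesis, at 31.0 ± 0.25 against 14.4 ± 3.14 TPM (1.07 ± 0.14). The ATF4 axis split, 6 of 19 higher and 5 lower, with Atf3 lower (184 ± 33.4 against 547 ± 14.5 TPM) and the serine synthesis enzyme Phgdh higher (131 ± 2.37 against 73.8 ± 6.38 TPM). The NRF2 axis split as well, 9 of 21 higher and 7 lower, with Hmox1 lower (509 ± 24.1 against 774 ± 18.2 TPM). Among genes of glutathione use 5 of 18 were higher and 3 lower, and 4 and 4 after scaling. Glrx was lower (271 ± 2.25 against 572 ± 4.52 TPM, -1.08 ± 0.047), and glutathione reductase Gsr was higher (90.8 ± 3.59 against 61.6 ± 0.42 TPM, 0.55 ± 0.062).

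At 12 h in WT cells, where 17.8% of all genes were higher and 53.1% lower, LPS raised 12 of 19 genes of the ATF4 axis and lowered 5 (14 and 3 after scaling), and raised 13 of 21 of the NRF2 axis and lowered 5 (15 and 2 after scaling). Of glutathione use 5 of 18 rose and 10 fell, and 6 and 4 after scaling. Glrx had the largest change of that list and rose (1464 ± 69.6 against 203 ± 0.118 TPM, 2.84 ± 0.070). Glutathione peroxidases Gpx4 (82.8 ± 6.97 against 237 ± 3.21 TPM, -1.51 ± 0.088) and Gpx1 (253 ± 4.49 against 623 ± 0.926 TPM, -1.30 ± 0.058) fell. Of the glutathione transferases 2 of 12 rose and 9 fell, and 2 and 6 after scaling. Ptges had the largest change of the transferase list and rose (21.5 ± 3.59 against 1.21 ± 0.327 TPM, 3.35 ± 0.16). Mgst3 (7.93 ± 0.136 against 42.5 ± 0.971 TPM) and Mgst2 (36.5 ± 3.29 against 111 ± 7.87 TPM) fell. In the taurine and sulfide list 1 of 12 rose, namely Sqor (163 ± 6.72 against 25.01 ± 0.983 TPM, 2.66 ± 0.076), and 9 fell, and 2 and 8 after scaling.

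In the genotype interaction at 12 h the ATF4 axis held genes on both sides. Past the threshold, 6 of 19 had a higher and 7 a lower interaction value, beside 13.7% and 6.96% of all genes. Atf3 responded more in Vim-KO cells (2.74 ± 0.22, adjusted p = 0.000156). It started lower there with PBS, at 8.42 ± 2.06 against 41.9 ± 1.43 TPM in WT cells (-2.21 ± 0.16). Sqor (-1.64 ± 0.11, adjusted p = 6.86e-05), Gsr (-0.95 ± 0.19, adjusted p = 0.0123), Glrx (-0.89 ± 0.099, adjusted p = 0.000742) and the neutral amino acid transporter Slc1a4 (-1.40 ± 0.26, adjusted p = 0.00844) responded less. The lists of these 4 genes were split, with 3 higher and 4 lower for glutathione use, 2 and 2 for transport and 1 and 1 for cysteine breakdown. After scaling these were 1 and 5, 2 and 3, and 0 and 1. The lysosomal cystine exporter Ctns (0.76 ± 0.16, adjusted p = 0.0157) and the transaminase Got2 (0.48 ± 0.13, adjusted p = 0.0399) had higher values in the interaction, as did Mtr of the methionine cycle (0.53 ± 0.099, adjusted p = 0.00941). Mtr was the 1 higher gene of 14 tested in that list, and 3 were lower, also after scaling. Amd1 (-0.71 ± 0.091, adjusted p = 0.00147) and Shmt1 (-0.52 ± 0.10, adjusted p = 0.0118) were among the lower. Of the NRF2 axis 2 of 21 were higher and 3 lower in the interaction, and 1 and 5 after scaling. By level with LPS, 12 of 21 were lower and 3 higher in Vim-KO than in WT cells, beside 20.6% and 24.1% of all genes. With PBS 8 of 21 were lower and 4 higher in Vim-KO cells, beside 25.4% and 17.7% of all genes.

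Across the 14 RAW264.7 libraries, with log2(TPM + 1) centred within each experiment, the members fell into an LPS-high and an LPS-low side. These correlations describe libraries that share the LPS treatment, so they carry no p. Slc7a11 and Cth had a Pearson r of 0.973 and Gclm and Chac1 of 0.960, while Slc7a11 ran opposite to Ado (-0.955) and Gclc (-0.915). Gss was the least tied to the others, with r from -0.639 to 0.494. Among 9138 genes averaging 5 TPM or more, those most like Slc7a11 were Eif4ebp1 (r = 0.989), Hax1, Rilpl2, Acsbg1 and Samsn1. Those most like Chac1 were Aldh1l2 (0.975), Asns (0.970), Mthfd2, Jdp2 and Ctsl. Most like Gclm were Mthfd2 (0.977), Rab21, Rars, Gars and Hars, and most like Cth were Esd (0.991), Nars, Acot7, Aldh1l2 and Cpd. The genes nearest to Gclc were led by Shtn1 (0.989), to Ado by Rassf2 (0.990), to Csad by Hes6 (0.966) and to Gss by Cd5 (0.928).

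In liver a gene has a row only if its WT LPS and WT PBS values lie 2-fold or more apart, so this contrast chose which members are seen there and is given as a description. Differences are of log2(TPM + 1), with 1 library a group and so no replicate check and no test. In bulk tissue, fewer cells of a type and less RNA per cell cannot be told apart. With LPS, Cth stood at 28.4 TPM against 105 with PBS, Gclm at 17.3 against 65.2, Csad at 24.1 against 58.6, Gss at 12.5 against 28.6, Gclc at 28.6 against 58.6 and Ado at 1.5 against 3.11. Chac1 was on the other side, at 31.5 against 4.88 TPM. Slc7a11 was low in all 7 livers, at 0.01 TPM in both PBS livers and between 0.16 and 0.25 TPM in the 5 LPS livers, and no fold is given against a value at the last decimal listed. By a difference of at least 1, 5 of 8 members were lower and 1 higher, where 66.9% of listed genes passed, 20.6% higher and 46.3% lower. The listed Kupffer markers summed to 32.0 TPM in the WT LPS liver against 88.0 TPM with PBS and the 7 listed neutrophil markers to 87.95 against 1.76 TPM. The macrophage list, with 8 of 10 markers listed, summed to 459 against 59.9 TPM and the 6 listed endothelial and stellate markers to 33.8 against 80.9 TPM. By a difference of at least 1, 3 of the 8 macrophage markers were higher with LPS and 3 lower (median -0.10). The larger macrophage sum thus does not stand for the list. The part of these markers in the members' values was not tested.

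In TG2-KO livers Cth (65.6 against 107 TPM), Gclm (23.9 against 45.5), Gclc (27.9 against 48.0), Csad (44.8 against 68.9), Gss (20.3 against 26.1) and Ado (1.97 against 2.85) were lower with LPS than with PBS, each by less than 1. Chac1 was higher, 39.2 against 7.58 TPM (2.23), the 1 member of 8 past that size, against 31.9% of listed genes, 14.8% higher and 17.1% lower. Listed genes as a whole were also lower, with a median difference of -0.38 beside -0.49 for the members, so lower values are not particular to the members. Set beside WT, the TG2-KO LPS liver held more Cth (65.6 against 28.4 TPM, 1.18), Csad (44.8 against 24.1 TPM, 0.87) and Gss (20.3 against 12.5 TPM, 0.65), and Gclc was level (27.9 against 28.6 TPM). There 1 of 8 members passed a difference of 1, against 6.30% of listed genes, 4.27% higher and 2.04% lower. With PBS 0 of 8 did, against 7.70% (2.94% higher and 4.76% lower), and the farthest were Chac1 (7.58 against 4.88 TPM) and Gclm (45.5 against 65.2 TPM). TG2-KO RNA was extracted on a date of its own, so genotype and date cannot be told apart. The WT LPS liver compared here also took part in choosing the listed rows. The other WT liver with LPS alone, with no dose given, held 45.0 TPM of Cth, 45.5 of Gclc, 23.45 of Csad and 13.96 of Gss. Against that liver the Cth gap was smaller, and Gclc was lower in the TG2-KO LPS liver and not level. The neutrophil list, with 7 of 10 markers listed, summed to 30.3 TPM in the TG2-KO and 1.76 TPM in the WT PBS liver, and to 159 and 87.95 TPM with LPS. Its part in these differences was not tested.

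With CTM added to LPS, Cth stood at 94.5 against 28.4 TPM with LPS alone (1.70) and Gclc at 67.1 against 28.6 TPM (1.20), so that 2 of 8 members passed a difference of 1, against 1.59% of listed genes, 0.698% higher and 0.887% lower. Chac1 (62.4 against 31.5 TPM, 0.96) and Gclm (29.8 against 17.3 TPM, 0.75) were higher by less, Csad was level (25.5 against 24.1 TPM), and Gss was lower (9.13 against 12.5 TPM, -0.42). Kupffer cell markers, of which 9 of 12 are listed, summed to 50.4 TPM with CTM and 32.0 TPM without, and neutrophil markers to 119 and 87.95 TPM. Their part was not tested. The other WT liver with LPS alone, of another extraction date and with no dose given, held 45.0 TPM of Cth and 45.5 TPM of Gclc, both above the liver used for this comparison.

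With liver macrophages depleted under LPS, Cth stood at 178 TPM, the highest of the 7 livers, against 45.0 TPM without depletion (1.96). Gclc was lower, at 26.4 against 45.5 TPM (-0.76), and the other 6 members differed by at most 0.17. The count past 1 was 1 of 8, against 8.83% of listed genes, 2.59% higher and 6.25% lower. Clec4f and Vsig4, which mark Kupffer cells, stood at 0.21 against 12.3 TPM and at 0.12 against 6.42 TPM, and the listed Kupffer markers summed to 20.2 against 79.5 TPM. Of the 9 listed Kupffer markers 6 were lower by at least 1 and 1 was higher. The neutrophil markers summed to 241 against 125 TPM and the 6 listed endothelial and stellate markers to 85.9 against 44.5 TPM. The neutrophil list was split, with 2 of 7 listed markers higher by at least 1 and 1 lower. Of the endothelial and stellate markers 3 were higher by that size and 0 lower. The macrophage list, 8 of 10 listed, summed to 615 against 413 TPM. Yet by a difference of at least 1, 0 of these 8 markers were higher with depletion and 3 were lower (median -0.60). The larger sum thus does not stand for the list. The part of these markers in the Cth value was not tested. Only 2 of 12 hepatocyte markers have a row, so the hepatocyte share was not analysed here.

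The ratio of Gclm to Gclc in liver was 1.11 with PBS, 0.604 with LPS, 0.444 with CTM added, 0.564 without and 0.906 with depletion, and 0.946 and 0.859 in TG2-KO livers with PBS and LPS. Read across the livers in order, Cth was highest with depletion, then at 107 and 105 TPM in both PBS livers, at 94.5 TPM with CTM, at 65.6 TPM in the TG2-KO LPS liver, and lowest in the 2 WT livers with LPS alone. That order mixes 3 extraction dates and includes livers whose LPS dose the labels leave out. With single libraries it also cannot be said which neighbours in it differ.

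**Figure D5:**
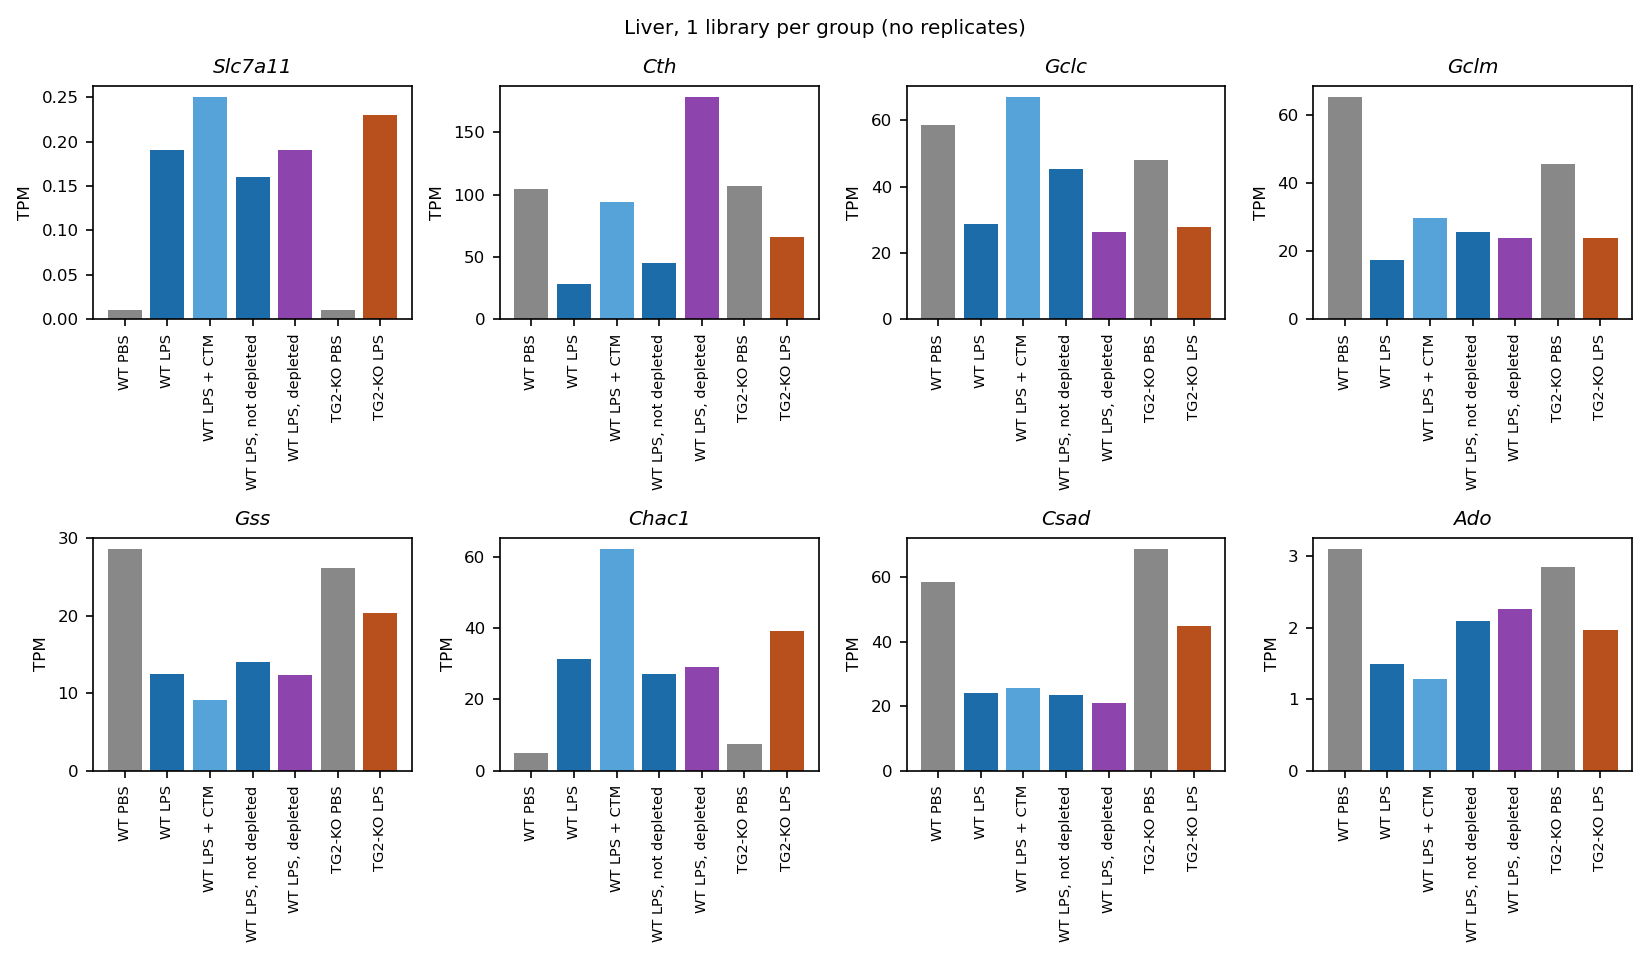
TPM of the 8 listed genes in the 7 livers, 1 library per bar and so no error bar, with axes from 0. Cth is at 178 TPM in the depleted liver and at 28.4 TPM in the WT liver with LPS, and Chac1 is above 27 TPM in every LPS liver and under 8 TPM in both PBS livers.

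Among the pathway lists in liver, 11 of 20 ATF4 axis genes have a row, and 10 of them were higher with LPS in WT by at least 1 and 0 lower. In TG2-KO livers 8 of the 11 were. All rows were listed by the WT contrast, in which 20.6% of listed genes were higher and 46.3% lower by that size, and in TG2-KO 14.8% and 17.1%. Of 12 listed genes of cysteine breakdown, sulfide and taurine 9 were lower and 2 higher with LPS in WT liver, and of 10 of the methionine cycle 8 were lower and 1 higher. Mpst, which moves sulfur from mercaptopyruvate, stood at 17.6 against 62.2 TPM, and Bhmt2, of homocysteine methylation, at 16.6 against 73.8 TPM. With depletion Hmox1 (38.9 against 188 TPM) and Atf3 (2.85 against 14.5 TPM) were lower, and Bhmt2 (50.9 against 22.2 TPM) was higher.

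Ahcy, which makes homocysteine upstream of Cbs, needs care. It stood between 571 and 1222 TPM in the 5 WT livers and at 34.3 and 23.9 TPM in the TG2-KO livers, while the near-identical copy Gm4737, looked up after the Ahcy values were seen, stood between 0.34 and 4.18 TPM and at 1209 and 780.0 TPM. The sum of both was 1227 TPM in the WT and 1243 TPM in the TG2-KO liver with PBS, and 604 and 804 TPM with LPS, so the level of Ahcy alone is uncertain. In RAW264.7 cells Ahcy read 2.10 to 13.3 TPM and Gm4737 78.8 to 248 TPM, so Ahcy is uncertain within the methionine cycle counts of the cells too. Ahcy (chromosome 2, 155059310 to 155074497, GRCm38) lies near Tgm2 (158116402 to 158146436) on the same chromosome, as does the member Gss (155563181 to 155592810), and Gm4737 lies on chromosome 16. How reads were divided between the copies is not given in the sources used here.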

How the data were processed

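Deposited values were TPM, obtained by the authors with Salmon per the submitters' processing notes, which name mm10 and GRCm38 and give no version. The kit was stranded, per the labels. Read counts cannot be recovered from TPM. Liver rows exist only for genes whose WT LPS and WT PBS values differ 2-fold or more: tested on the values, this held for all 5064 genes above 0 in both.

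Groups follow the labels. At 24 h the LPS and CTM columns are numbered 2 and 3 but the labels 1 and 2, so these columns were given a group and no replicate. Each experiment's genes averaging 1 TPM or more entered limma 3.58.1 (R 4.3.3) as log2(TPM + 1) (all groups in 1 model, mean-variance trend, Benjamini-Hochberg over all genes, threshold 0.05). The fit was tested on simulated data. In liver, differences of log2(TPM + 1) of at least 1 were counted without a test. The members, the pathway and marker lists, the tests and the alternatives were chosen with earlier results of these data known. All 10 members are named, with up to 3 genes of a list by largest change past the threshold without overlap, of which part is given, and the 5 genes most correlated with a member. The genes Ahcy and Gm4737 are named beyond that rule. Other settings tried were median-of-ratios scaling, a filter at 5 TPM or none, a pseudocount of 0.1, limma without the trend, only the compared groups in the fit, leaving out each library, and a replicate block. In liver they were the pseudocount and a difference of 2. Sequences are from RefSeq (GRCm38.p6), positions from a GRCm38 annotation. A macrophage-depleted group without LPS was not analysed here. Python 3.11.15, numpy 2.4.6, pandas 2.3.3 and matplotlib 3.10.9 were used.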

Additional observations from a re-analysis of the deposited data

Results flagged for a closer look

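Among WT and Vim-KO cells at 12 h, the LPS response differed by the interaction test for Slc7a11 (-0.98), Gclm (-0.61) and Chac1 (-1.63 on the log2 scale), each smaller in Vim-KO cells.

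Between tissues, Cth and Gclm lay on opposite sides with LPS. Every cell line LPS library was above every PBS library of its experiment and genotype for both genes, although Gclm in Vim-KO cells did not pass (0.19, adjusted p = 0.0698 by limma), whereas the WT liver stood at 28.4 TPM of Cth and 17.3 TPM of Gclm with LPS, below 105 and 65.2 TPM with PBS, and the TG2-KO liver was lower with LPS too. The difference between tissues was not tested. Liver has 1 library a group, its genes were listed by this same contrast in WT, and dose and time are not matched to the cells.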

How the results depend on the processing

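Depth is unknown for all libraries, and with 2 libraries a group a call can rest on 1 of them. Of the 973 values that alternatives gave for tested members, 906 kept direction and side of the threshold, 36 lost the call, 15 gained it and 16 changed sign. Where no cause is named below, the cause was not tested.

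For CTM against LPS, the members past went from 2 to 1 with no filter, with scaling and without the trend, and to between 0 and 3 leaving out a library, and genes past from 2823 to between 1153 and 2362. Members past for Vim-KO against WT with LPS went from 5 to 3 on the samples of the contrast alone and to between 3 and 6 leaving out a library. Leaving out a library also gave between 3186 and 5343 genes past for Vim-KO against WT with PBS (4782 with all) and between 1203 and 2656 for the interaction (2292 with all). Scaling reversed Gss in WT at 12 h (0.25) and Ado in the interaction (-0.048). Leaving out 1 library reversed only values that had not passed. For CTM against LPS, Cbs ranged from -0.38 to 0.14 and Csad from -0.070 to 0.54. Cdo1 for LPS in WT at 12 h ranged from -0.13 to 0.046. For Vim-KO against WT with PBS, Gss ranged from -0.037 to 0.059, Chac1 from -0.062 to 0.17 and Csad from -0.91 to 0.18. With LPS, Ado ranged from -0.096 to 0.043, Cdo1 from -0.29 to 0.12 and Csad from -0.33 to 0.097. In the interaction, Ado ranged from -0.0014 to 0.14 and Csad from -0.302 to 0.79.

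In liver, a pseudocount of 0.1 gave 405 listed genes past a difference of 1 for CTM (84 before), 968 for depletion (468), 2790 for LPS in TG2-KO (1692), 911 for TG2-KO against WT with LPS (334) and 947 with PBS (408), and 2 members for LPS in TG2-KO. A difference of at least 2, a stricter rule by construction, left 939 for LPS in WT, 9 for CTM, 73 for depletion, 430 for LPS in TG2-KO, and 28 and 46 for TG2-KO against WT with LPS and PBS, with 1 member for LPS in WT and 0 for CTM, depletion and TG2-KO against WT with LPS.

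With a replicate block, 2347 genes passed for CTM against LPS, where Gclc lost its call (adjusted p = 0.0518) and Chac1 gained one (adjusted p = 0.0315), and 1835 in the interaction. At 12 h it gave Csad a call for LPS in Vim-KO (adjusted p = 0.0262) and changed no other member's call. The samples share only a number: same-numbered libraries deviated together with r from -0.219 to 0.0982 at 12 h and -0.031 for LPS and CTM at 24 h. No paired analysis was possible at 24 h for comparisons with PBS because the columns share fewer than 2 numbers.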
